A study of Gallus gallus with 8 samples.

Results

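Open chromatin was described here on 5 dot microchromosomes of the chicken, chromosomes 16, 30, 31, 32 and 33. Every ATAC-seq region listed on these 5 chromosomes was taken, which gave 1415 of the 89824 regions in the data. Chromosome 33 held 731 of them, chromosome 30 held 255, chromosome 31 held 189, chromosome 16 held 121 and chromosome 32 held 119. Of these, 68 were kept apart because their summed level in the 4 treated libraries was under 2% of that in the 4 developing libraries, and they are termed the set apart. The other 1347 regions carry the comparisons of stage and treatment. Regions on chromosomes 1-5 (44985, of which 74 in the set apart) and on chromosomes 11-28 without 16 (23949, of which 66) served for comparison.

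Chicken chromosomes fall into a few large macrochromosomes and many microchromosomes, and the dot chromosomes are counted among the smallest of these. Microchromosomes are rich in genes and in GC, with short introns and short distances between genes, and the dot chromosomes combine this with repeats that make them hard to assemble. Chromosome 16 carries the major histocompatibility complex and the nucleolar organizer, where the ribosomal RNA genes are repeated in tandem.

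The libraries came from the retinal pigment epithelium (RPE), the pigmented layer behind the neural retina, of chicken embryos at embryonic day 4 (E4) and day 5 (E5). At each stage RPE was collected either from the developing eye or 6 h after surgical removal of the retina with delivery of beads soaked in fibroblast growth factor 2, a group termed 6hPR+FGF2. The question addressed by the study is what sets E4 RPE, which can regenerate neural retina with FGF2, apart from E5 RPE, which cannot. Each of the 4 groups held 2 libraries, and each library was made from the RPE of 2 embryos, so that a p-value here measures the spread between pooled pairs of embryos. The effects of retinectomy and of FGF2 cannot be told apart, because no group with retinectomy alone was analysed here. The sources disagree on the eggs: the descriptions of the samples name White Leghorn eggs, and the methods of the study name SPAFAS eggs from another supplier for sequencing.

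Values are normalized read counts per region on the GRCg6a build. Reads within all regions ran from 25233633 to 72884966 per library, with the E5 6hPR+FGF2 libraries the shallowest, and 737410 to 1742259 of them lay on the dot chromosomes. Changes are log2 differences of (normalized count + 1), tested with limma over all 89824 regions with no filter on low values, and a region was called where its p, adjusted by Benjamini-Hochberg, was at most 0.05. Values in parentheses after a change are its standard error (SE). Counts of regions per chromosome are descriptions without a test, since regions of a chromosome share its libraries and are not replicates.

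The 5 chromosomes differed widely in how densely open regions lay. Over the span from the first to the last region, density was 164.1 regions per Mb on chromosome 32 (0.725 Mb), 143.8 on chromosome 30 (1.77 Mb) and 95.3 on chromosome 33 (7.67 Mb). It was 51.8 per Mb on chromosome 16 (2.34 Mb) and 30.8 on chromosome 31 (6.14 Mb). Chromosomes 32 and 30 thus lay within the range of the other microchromosomes, while chromosomes 16 and 31 were sparser than all the others but W, at 30.2 per Mb. Pooled, the dot chromosomes held 75.9 regions per Mb, close to the 73.9 of chromosomes 1-5 and under the 132.6 of chromosomes 11-28. The pooled value hides the spread among the 5 chromosomes. By span, chromosomes 31 and 33 were not smaller than all comparison microchromosomes, as chromosome 25 spanned 3.97 Mb and chromosome 28 spanned 5.09 Mb.

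**Figure D1:**
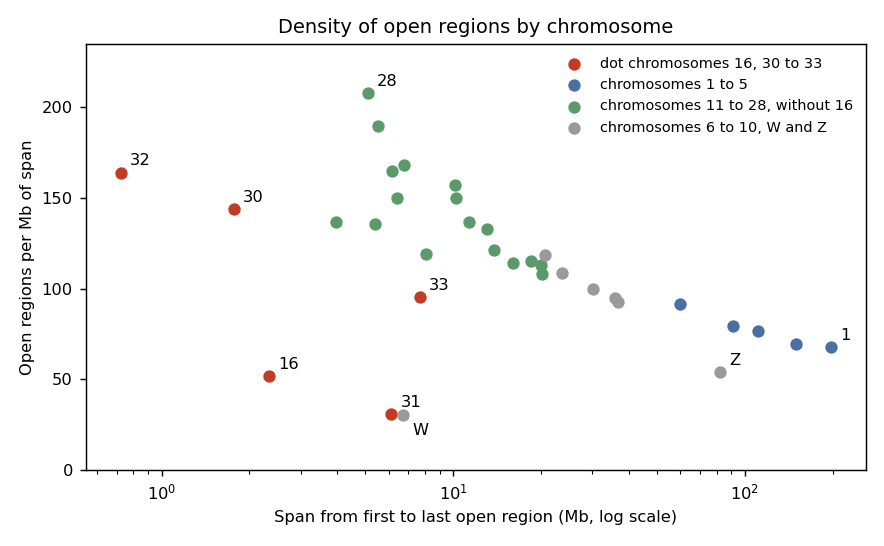
Open regions per Mb (y axis) against the span in Mb from the first to the last region on a log scale (x axis), with 1 point per chromosome coloured by chromosome group. Chromosomes 32 and 30 sit among the microchromosomes at 164.1 and 143.8 per Mb, while chromosomes 16 and 31 sit near the bottom, at 51.8 and 30.8 per Mb.

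Long empty stretches lay on chromosomes 33 and 31. The largest gap between neighbouring regions in the whole series lay on chromosome 33, from 195890 to 1920310, and measured 1724 kb. The next gap on that chromosome, from 2164690 to 2771020, measured 606.3 kb, and chromosome 31 had gaps of 389.6 and 380.3 kb. Elsewhere on chromosome 33 regions were crowded: among 2098 windows of 500 kb that held any region, with a median of 40, the window from 7.0 to 7.5 Mb held 168 and had rank 2, and that from 5.5 to 6.0 Mb held 140 and had rank 4. The median gap between neighbours was 2000 bp on the dot chromosomes, 3080 bp on chromosomes 11-28 and 6390 bp on chromosomes 1-5. By chromosome it was 1475 bp on 33, 2225 bp on 30, 2265 bp on 32, 4370 bp on 16 and 5370 bp on 31. Chromosome length was not used here, so density beyond the outermost regions and over unassembled sequence was not measured.

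Regions of the dot chromosomes were about as wide as those of other chromosomes at the median but more often very wide than those of chromosomes 1-5. The median width was 570 bp on the dot chromosomes, 500 bp on chromosomes 1-5 and 610 bp on chromosomes 11-28. By chromosome the median was 630 bp on chromosome 32, 570 bp on 33, 560 bp on 16, 530 bp on 30 and 500 bp on 31. Regions over 2000 bp made up 9.89% on the dot chromosomes, 9.78% on chromosomes 11-28 and 5.44% on chromosomes 1-5, and the share was 14.0% on chromosome 16 and 12.2% on chromosome 31. The share of the span that was open was 14.8% on chromosome 32, 14.4% on 30, 9.53% on 33, 7.43% on 16 and 3.99% on 31, beside 5.68% on chromosomes 1-5 and 12.6% on chromosomes 11-28.

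Without the set apart, regions of the dot chromosomes stood above those of chromosomes 1-5 in all 8 libraries, and by more in the treated ones. The median log2 level on the dot chromosomes minus that on chromosomes 1-5 was 0.39 and 0.26 in E4 RPE and 0.23 and 0.24 in E5 RPE. After treatment the same difference was 0.71 and 0.67 at E4 and 0.86 and 0.57 at E5. The 4 treated libraries thus all lay above the 4 developing ones, with means of 0.70 and 0.28. Chromosomes 11-28 moved in the same direction: their difference to chromosomes 1-5 was 0.30 to 0.33 in the developing libraries and 0.58 to 0.70 in the treated ones. Against chromosomes 11-28 the dot chromosomes differed by only -0.09 to 0.16 over the 8 libraries, and developing and treated libraries overlapped. Wide regions collect more reads. Per 1000 bp of region the mean difference to chromosomes 1-5 was 0.03 in developing and 0.48 in treated RPE, and both E5 RPE libraries lay below 0 (-0.02 and -0.03). Leaving out the set apart, which was chosen by low treated signal, raises the treated values. With it included and no division by width, the means were 0.24 in developing and 0.59 in treated RPE.

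Chromosome 31 was the only dot chromosome below chromosomes 1-5. Its median level minus that of chromosomes 1-5 was -0.42 and -0.39 in E4 RPE, -0.82 and -1.12 in E5 RPE, -1.71 and -1.58 in treated E4 RPE and -1.07 and -2.0 in treated E5 RPE. All 8 values were below 0, and 1 treated library lay between the developing ones. Chromosome 32 had the highest values, 0.71 to 0.93 in developing and 1.32 to 1.48 in treated libraries, without overlap. The difference was 0.41 to 0.74 against 0.85 to 1.24 on chromosome 30, again without overlap, and 0.27 to 0.34 against 0.69 to 0.91 on chromosome 33. On chromosome 16 the developing libraries, 0.36 to 0.95, and the treated ones, 0.29 to 0.72, overlapped. Replicates were also noisier on chromosomes 31 and 16, where the median SD between replicates was 0.65 and 0.41 on the log2 scale, than on chromosomes 30, 33 and 32 (0.26, 0.23 and 0.20), beside 0.26 on chromosomes 1-5.

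**Figure D2:**
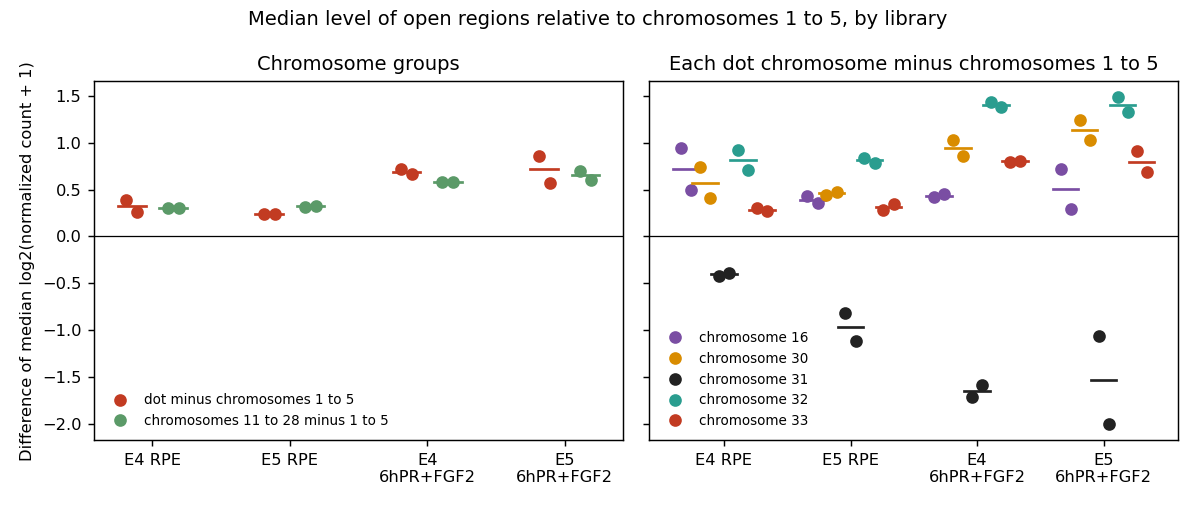
Difference of the median log2(normalized count + 1) to that of chromosomes 1-5 (y axis) in each of the 4 groups (x axis), as chromosome groups (left) and for each dot chromosome (right), with a point per library and a bar at the mean of 2. On the left the 4 treated libraries of the dot chromosomes, at 0.57 to 0.86, lie above the developing ones at 0.23 to 0.39, and chromosomes 11-28 do likewise. On the right only chromosome 31 lies below 0 in every library.

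Members of the set apart were concentrated on 3 of the chromosomes. They made up 16.4% of the regions of chromosome 31 (31 of 189), 9.02% on chromosome 30 (23 of 255) and 6.61% on chromosome 16 (8 of 121), but 0.821% on chromosome 33 (6 of 731) and none of the 119 on chromosome 32. The share was 4.81% over the dot chromosomes, 0.164% on chromosomes 1-5, 0.276% on chromosomes 11-28 and 36.0% on W. The dot chromosomes thus held 20.8% of the 327 such regions in the series. Counting only regions with a developing mean of 100 or more, 37 of 918 dot regions (4.03%) remained in the set, beside 0.156% and 0.202% on chromosomes 1-5 and 11-28, so the excess was not made of weak regions alone. Because the fall itself chose these regions, their loss of signal is described, and limma calls among them are no test of it.

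The fall was to no reads at all in many of them. Of the 68 regions, 35 had no read in any treated library and 46 had fewer than 3. All treated reads over the 68 regions numbered 123 and 57 in treated E4 RPE and 63 and 39 in treated E5 RPE, against 18110 and 24535 in E4 RPE and 24178 and 12100 in E5 RPE. The developing mean of a member ran from 1.82 to 2405 normalized counts with a median of 110, and the median width was 350 bp. A treated mean is compared below with a floor of 3 reads over a group where no read was seen, and this floor covers counting error only.

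The highest such region of chromosome 16, chr16:741290-741790, had 721 and 543 normalized counts in E4 RPE and 356 and 418 in E5 RPE and no read after treatment. This makes it at least 581-fold lower for E4 and at least 155-fold for E5. On chromosome 30 the region chr30:1235770-1242680 had 3574 and 2941 in E4 RPE and 1768 and 1338 in E5 RPE, and 22.8, 18.3, 51.4 and 13.7 in the treated libraries, which is 1.10% in all. This 6910 bp region was thus lowered but still read in each treated library. On chromosome 31 the region chr31:4504080-4504690 had 429, 394, 441 and 272 in the developing libraries and no treated read, at least 378-fold lower at E4 and 143-fold at E5. The region chr33:195000-195890 had 1604 and 1395 in E4 RPE and 1355 and 732 in E5 RPE and kept 3.45, 2.29, 3.67 and 3.04 in the treated libraries (0.245%). It is the last region before the gap of 1724 kb. The strongest region without a treated read, chosen here after its values were seen, was chr30:1640150-1641150, with 2010, 1631, 1373 and 669 in the developing libraries, at least 1674-fold lower at E4 and 409-fold at E5.

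Just inside the 2% threshold lay regions at 1.87% (chr16, from 2354480), 1.86% (chr30, from 1662920) and 1.61% (chr31, from 3083760). Just outside lay regions at 2.03% (chr30, from 264290), 2.25% (chr31, from 916730) and 2.28% (chr31, from 395420). There was no break in the values at the threshold, and a further 93 dot regions kept 2 to 25% of their developing level, 46 of them on chromosome 31, 20 on 33, 16 on 16, 11 on 30 and none on 32.

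Members of the set apart lay next to each other on chromosome 30. With neighbours joined up to 25 kb, 8 runs held 40 of the 68 regions and 28 stood alone. On chromosome 30 all 9 regions from 1227890 to 1244230 belonged to the set, and so did 14 of the 21 from 1614940 to 1663260, where the other 7 kept 2.95% to 31%. These neighbourhoods therefore fell as blocks. On chromosome 31, by contrast, 4 of 6 regions from 4709440 to 4717090 were in the set while the other 2 kept 78.8% and 133%. Loss and full signal thus stood side by side there.

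Developing libraries themselves differed in these regions. The median over the 68 was 146 and 151 in E4 RPE, 111 in E5 RPE replicate 1 and 49.6 in E5 RPE replicate 2, and 0 in each treated library. E5 RPE replicate 2 was the lowest of the 4 developing libraries in 54 of the 68, including 22 of 23 on chromosome 30 and 25 of 31 on chromosome 31. On chromosome 33 it was lowest in 4 of 6, and on chromosome 16 in 3 of 8. That library was also lowest in 58 of the 93 regions that kept 2 to 25% (62.4%), but in 23.6% of the 1253 that kept more. On chromosomes 1-5 it was lowest in 16% of the 881 regions that kept 2 to 25%. On the dot chromosomes the regions that lost most after treatment were thus also the ones in which this developing library was low. This was not particular to the dot chromosomes, as the summed set apart of the comparison chromosomes was also lowest in E5 RPE replicate 2. In the developing libraries it took 0.0725%, 0.0593%, 0.0501% and 0.0277% of all signal on chromosomes 11-28. On chromosomes 1-5 it took 0.589%, 0.248%, 0.203% and 0.145%.

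The decline over the developing libraries was not the same along chromosome 31. The 14 members that start before 3 Mb summed to 2048 and 1518 in E4 RPE and 1146 and 949 in E5 RPE. The 17 that start after 3 Mb summed to 1536 and 2445 in E4 RPE and 2456 and 849 in E5 RPE, so E5 RPE replicate 2 was lowest and E4 RPE replicate 1 was also low. On chromosome 30 the 23 members summed to 15821, 11552, 9227 and 5345. Of the 203 regions of the W chromosome, carried by female birds, 130 lay outside the set apart. These 130 took 0.174%, 0.298%, 0.397% and 0.0394% of the signal outside the set apart in the developing libraries. In the treated ones they took 0.000695%, 0.109%, 0.00042% and 0.187%. The dot set apart took 0.0523%, 0.0415%, 0.0332% and 0.0199% of all signal in the developing libraries. In the treated ones it took 1.9e-04%, 9.6e-05%, 2.5e-04% and 1.1e-04%. Any relation between the W chromosome and the dot set apart was not tested.

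**Figure D3:**
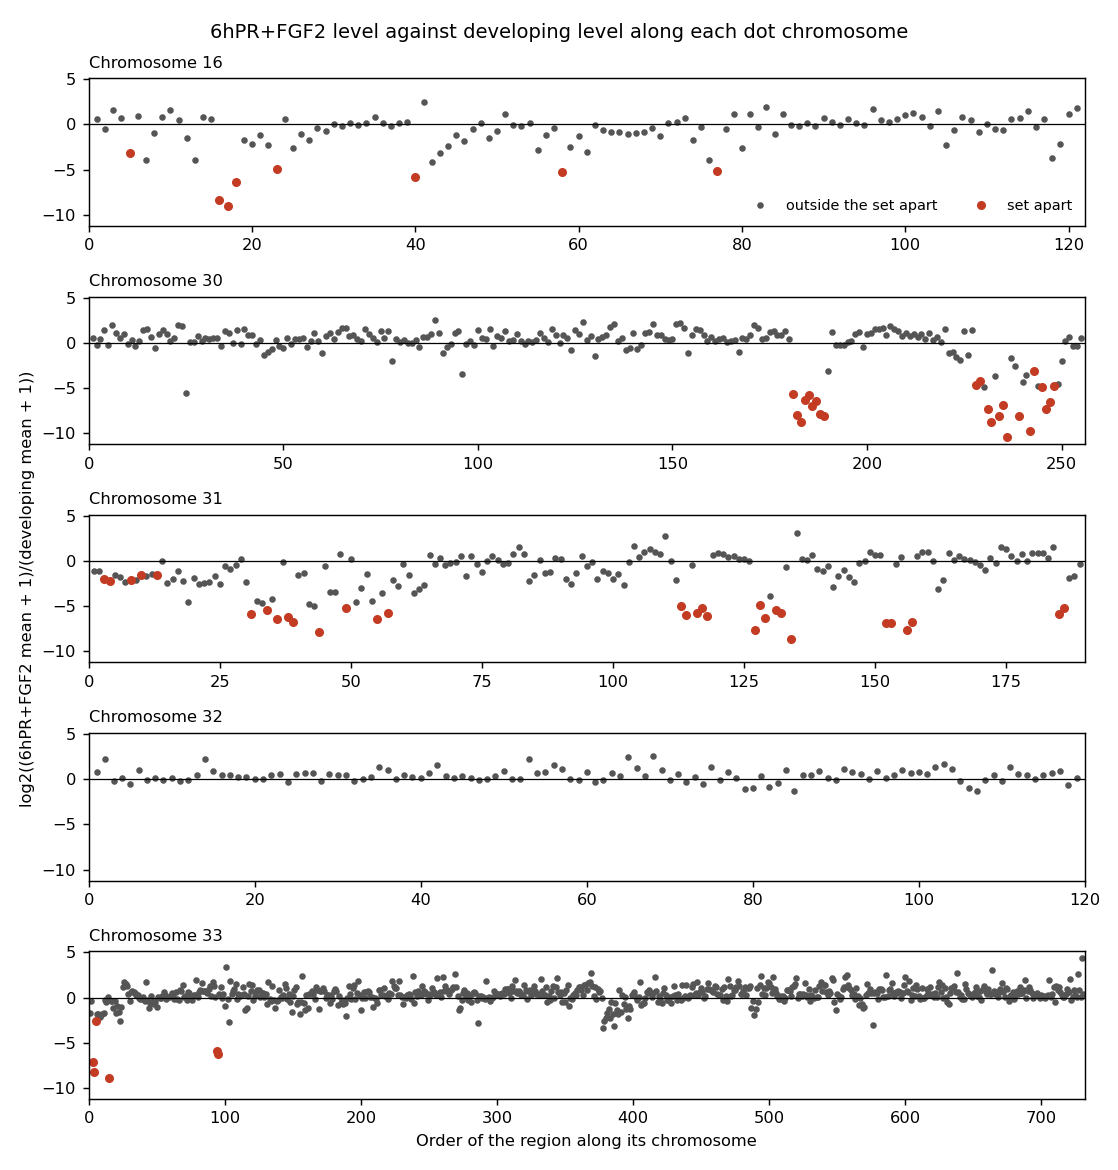
Log2 ratio of the treated to the developing mean, each plus 1 (y axis), for every region in its order along the chromosome (x axis), with 1 panel per chromosome; red points mark the 68 regions of the set apart. Red points form 2 blocks on chromosome 30 and are scattered over chromosome 31, and chromosome 32 has none.

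Limma called 59 of the 68 regions of the set apart lower at E4 and 54 at E5, and these are left out here. Among the 1347 regions outside the set apart, a larger share was called for treatment than among all regions, mostly upward. At E4, 428 were called (31.8%; 19.7% of all regions without the set apart), of which 312 rose and 116 fell, beside 10.5% and 9.26% of all regions. At E5, 603 were called (44.8%; 37.3% of all), of which 444 rose and 159 fell, beside 18.2% and 19.1% of all regions. On chromosomes 1-5 fewer regions rose than fell, 8.17% against 11.8% at E4 and 15.5% against 23.5% at E5. Chromosomes 11-28 leaned upward like the dot chromosomes, with 15.1% higher and 5.84% lower at E4 and 24.5% and 12.3% at E5. The median change was 0.30 at both stages on the dot chromosomes, -0.14 and -0.16 on chromosomes 1-5 and 0.14 and 0.15 on chromosomes 11-28. Counts on leaving out a library, given next, are of dot regions and stand without the share over all regions. The E4 count fell to 207 without E4 RPE replicate 2, and to 225 and 173 without replicates 1 and 2 of E4 6hPR+FGF2, and the E5 count to 389 without E5 RPE replicate 1, with more rises than falls in each case.

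Outside the set apart, rises outnumbered falls on chromosomes 30, 32 and 33, and falls outnumbered rises on chromosome 31. Chromosome 16 had more falls than rises at E4 but nearly equal numbers at E5. On chromosome 30, 68 regions rose and 24 fell at E4 and 102 rose and 21 fell at E5, the highest share of rises of all 34 chromosomes at both stages. Chromosome 33 had 192 rises and 28 falls at E4 and 247 and 64 at E5. Chromosome 32 had 29 and 2 at E4 and 48 and 5 at E5, the lowest share of falls of all 34 chromosomes at both stages. Chromosome 31 had 11 rises and 35 falls at E4 and 22 and 43 at E5, the highest share of falls of any chromosome at E5. Chromosome 16 had 12 rises and 27 falls at E4, the highest share of falls at that stage, and 25 and 26 at E5. The ranks among 34 chromosomes hold outside the set apart only, which was chosen by its fall. Called falls in the set apart at E4 and E5 numbered 22 and 22 on chromosome 30 and 24 and 21 on chromosome 31. They numbered 8 and 6 on chromosome 16 and 5 and 5 on chromosome 33. On W, 36.0% of the regions were in the set apart. The same direction held at both stages for every region called in both: 269 rose, 85 fell and 0 changed sign, which is 82.7% of the E4 calls and 58.7% of the E5 calls. Over all regions without the set apart these shares were 82.7% and 43.7%, and 12 of these regions changed sign. The stages share no libraries but were tested in 1 fit with 1 estimate of the spread per region, so their calls are not independent.

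**Figure D4:**
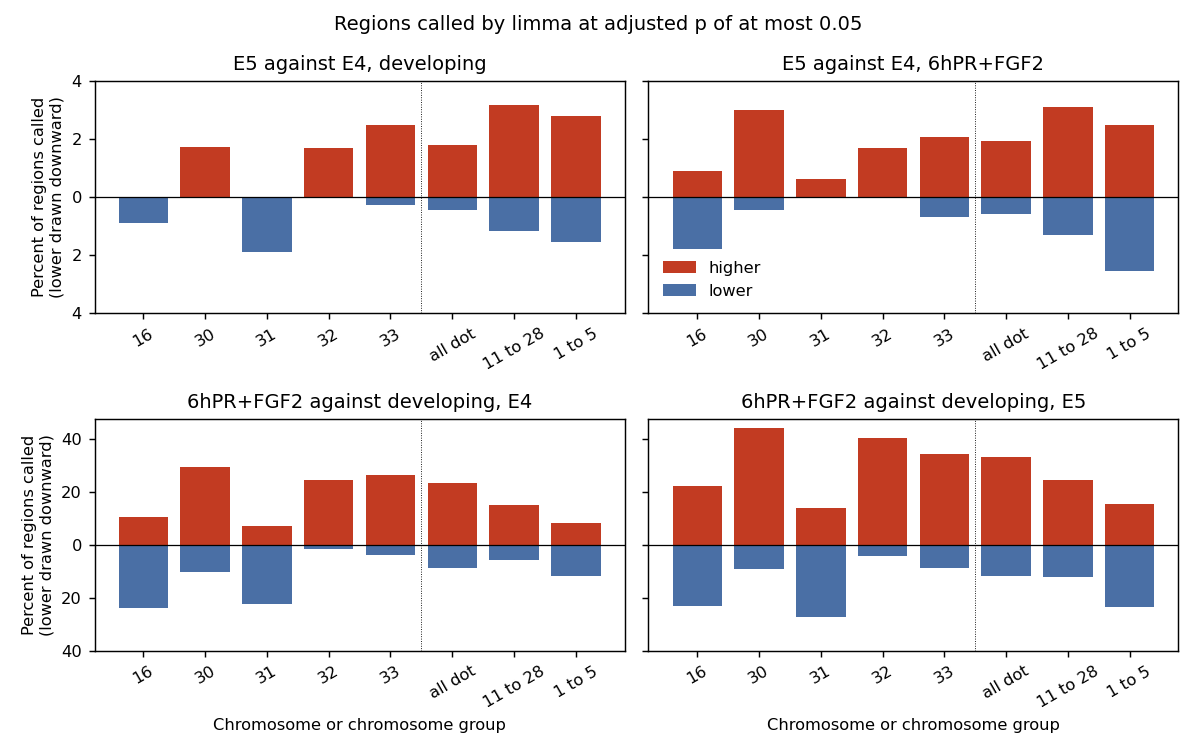
Percent of regions outside the set apart called by limma (y axis, higher upward in red and lower downward in blue) on each dot chromosome, all dot chromosomes together and the comparison chromosomes (x axis), for the 4 comparisons. The axis reaches 4% in the stage panels and 40% in the treatment panels; chromosomes 30, 32 and 33 lean upward after treatment, chromosome 31 leans downward, and few regions are called between stages.

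Higher signal gives a test more power, and dot regions were somewhat stronger than the rest (median of the 8-library mean 217, beside 167 over all regions). With all regions split by mean level into 4 classes of equal size, the share called at E4 was 22.9%, 34.2%, 39.6% and 31% on the dot chromosomes from the weakest to the strongest class, beside 10.9%, 19.5%, 25.7% and 22.8% over all regions. At E5 the shares were 26.0%, 42.8%, 53.4% and 53.2%, beside 29.8%, 36.9%, 43.1% and 39.5%. The dot share was thus higher in all 4 classes at E4, and at E5 in all but the weakest. Direction differed by class. In the weakest class more dot regions fell than rose, 41 against 34 at E4 and 50 against 35 at E5. In each stronger class more dot regions rose than fell at both stages. Replicates did not overlap between treated and developing RPE in 971 of the 1347 dot regions at E4 (72.1%, beside 62.3% over all) and in 985 at E5 (73.1%, beside 70.8%).

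The 2 dot regions with the largest rises at E4 were both on chromosome 33. The region chr33:7753430-7753700 had 8.49 and 9.78 normalized counts in E4 RPE and 7.07 and 15 in E5 RPE, against 132 and 300 in treated E4 RPE and 222 and 251 in treated E5 RPE. All treated libraries lay far above all developing ones, with changes of 4.30 (SE 0.47, adjusted p = 0.000479) at E4 and 4.38 (SE 0.47, adjusted p = 0.000183) at E5. The region chr33:3769300-3769500 had 21.2, 5.71, 4.24 and 7.5 in the developing libraries and 97.2 to 121 in the treated ones, with changes of 3.22 (SE 0.57, adjusted p = 0.00421) and 4.04 (SE 0.57, adjusted p = 0.000622). The third, chr33:7378090-7378320, rose by 3.09 (SE 0.35, adjusted p = 0.000518) at E4, from 12.2 to 21.7 over the developing libraries to 138 to 182 over the treated ones. On chromosome 32 the region chr32:273500-273730 had 201, 88.1, 70.0 and 108 in the developing libraries and 645, 536, 759 and 831 after treatment, without overlap, and rose by 3.17 (SE 0.35, adjusted p = 0.000195) at E5. These calls held under every alternative run, with an adjusted p of at most 0.0322. The 4 regions were 200 to 270 bp wide, and those on chromosome 33 were weak before treatment.

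The largest falls outside the set apart were on chromosomes 30 and 31 and bordered on the set. The region chr30:264290-265150 had 1636 and 1481 in E4 RPE and 1579 and 1373 in E5 RPE, against 37.3 and 32.8 in treated E4 RPE and 25.7 and 27.4 in treated E5 RPE. Its changes were -5.44 (SE 0.20, adjusted p = 1.48e-06) at E4 and -5.74 (SE 0.20, adjusted p = 1.14e-06) at E5, and unlike many of the set apart its developing libraries were nearly equal. The region chr30:1657780-1658800 had 1351, 681, 818 and 409 in the developing libraries and 46.2, 0, 33.1 and 33.4 in the treated ones, and fell by 7.13 (SE 1.29, adjusted p = 0.00474) at E4. That SE rests on a library with no read beside its replicate at 46.2. The region chr30:1630090-1631350 had 181 to 357 in developing and 0 to 12.2 in treated libraries and fell by 6.02 (SE 0.90, adjusted p = 0.000854) at E5. On chromosome 31, chr31:916730-917050 had 134, 106, 83.5 and 49.2 in the developing libraries and 0, 5.34, 0 and 3.04 in the treated ones, and fell by 5.58 (SE 0.93, adjusted p = 0.00328) at E4. The region chr31:897790-898460 had 241 to 472 against 3.67 to 19.8 and fell by 5.49 (SE 0.48, adjusted p = 8.33e-05) at E5. These calls also held under every alternative run, with an adjusted p of at most 0.0375.

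Called falls on chromosomes 16, 30 and 31 were deep even without the set apart. Only called falls are compared, and a region with noisier replicates must fall further to be called. The median SD between replicates was 0.65 on chromosome 31 and 0.41 on 16, beside 0.26 on chromosome 30 and on chromosomes 1-5. How much of the depth on chromosomes 31 and 16 goes with this was not tested. Of the 116 dot regions that fell at E4, 70 kept under 25% of the developing mean (60.3%), and the median kept was 19.1%. On chromosomes 1-5 the share was 7.67% and the median kept 44.8%, and on chromosomes 11-28 they were 10.3% and 49.9%. At E5, 68 of the 159 falling regions kept under 25% (42.8%, median kept 31.3%), beside 17.3% and 12.2% of the falling regions on chromosomes 1-5 and 11-28. Chromosome 31 held 30 of the 70 deep falls at E4, chromosome 16 held 17, chromosome 30 held 13 and chromosome 33 held 10. At E5 the median kept was 17.7% on chromosome 31, 18.2% on 30 and 27.0% on 16. It was 49.8% over the 64 falls of chromosome 33 and 60.1% over the 5 of chromosome 32, above the 41.1% of chromosomes 1-5.

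Called regions of 1 direction also stood in runs, counted with the set apart left out, so that neighbours could have its members between them. This left out 4.81% of the dot regions, beside 0.164% on chromosomes 1-5 and 0.276% on chromosomes 11-28. Runs of at least 6 neighbouring regions called in the same direction, a length chosen after the values were seen, took in 35 of the 444 rises at E5 in 5 runs (7.88%) and 21 of the 159 falls in 2 runs (13.2%). On chromosomes 1-5 such runs held 0.475% of the rises and 2.99% of the falls, and on chromosomes 11-28 they held 3.52% and 2.69%. Runs form more readily where a larger share of regions is called. Rises were called at E5 in 444 of 1347 dot regions, beside 15.5% and 24.5% on chromosomes 1-5 and 11-28. Falls were called in 159 of them, beside 23.5% and 12.3%. How much of the difference in runs goes with these shares was not tested. On chromosome 30 all 9 neighbours from 1378600 to 1401710 rose at both stages, with median changes of 1.14 and 1.63. Further along, 9 regions outside the set apart, from 1630090 to 1666910, fell at both stages, with medians of -3.59 and -3.73. They lay within and beside the block of the set apart, with members of it between them. On chromosome 31, 12 neighbours from 190500 to 206650 fell at E5 with a median of -1.91. A run of 7 rises on chromosome 33 from 5984160 to 6009930 had a median of 1.63 at E5.

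Chromosome 16 held the strongest region of the whole series, chr16:1836420-1843820, 7400 bp wide. Its mean of 240664 normalized counts compared with 53906 for the next region of the series, and it took 65.9% to 80.6% of the signal of chromosome 16. It had 244286 and 185324 in E4 RPE, 265848 and 203753 in E5 RPE, 190681 and 222497 in treated E4 RPE and 272222 and 340699 in treated E5 RPE. Groups overlapped at E4, and the changes with treatment of -0.05 (SE 0.18, adjusted p = 0.882) at E4 and 0.39 (SE 0.18, adjusted p = 0.115) at E5 did not pass the test.

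Some regions near it, named after their values were seen, fell after treatment, while others were not called. The region chr16:1797690-1801100 had 15128 and 11174 in E4 RPE and 19327 and 10570 in E5 RPE, against 1012 and 1245 in treated E4 RPE and 2463 and 1567 in treated E5 RPE. Its changes were -3.53 (adjusted p = 0.000108) at E4 and -2.86 (adjusted p = 0.000136) at E5, without overlap. The region chr16:1813540-1829990 had 11227 to 20242 in developing and 3128 to 4947 in treated libraries, with changes of -2.05 (adjusted p = 0.000594) and -1.61 (adjusted p = 0.000766). The region directly before the strongest one, chr16:1830160-1836180, kept 71.3% and was not called at either stage. A weak region between members that fell, chr16:1790680-1791190, rose from 56.6, 56.3, 48.1 and 21.7 to 191, 216, 457 and 176, by 1.83 (adjusted p = 0.0207) and 3.10 (adjusted p = 0.000822). Also called at neither stage were, among others, chr16:1784080-1785080, which kept 86.0%, and chr16:1858900-1860620, which kept 91.5%. Along this stretch regions that fell, regions that were not called and a region that rose at both stages were thus mixed.

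**Figure D5:**
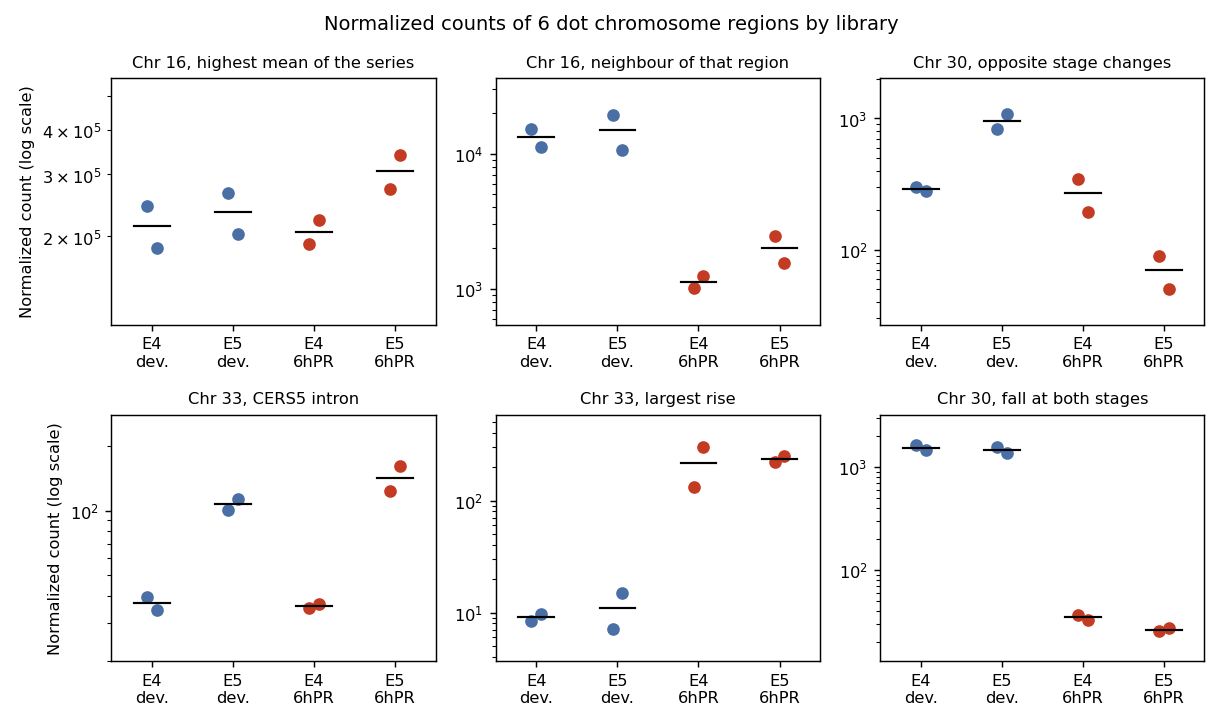
Normalized count on a log scale (y axis, its range set per panel) in the 4 groups (x axis; 6hPR stands for 6hPR+FGF2) for 6 dot chromosome regions, with a point per library, developing in blue and treated in red, and a bar at the mean of 2. The strongest region of the series, on chromosome 16, stays between 185324 and 340699. A region near it, titled as its neighbour, falls from 10570 or more to 2463 or less. The chromosome 30 region with opposite stage changes rises in developing and falls in treated RPE.

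Few dot regions were called between E5 and E4. In developing RPE 30 of 1347 were called (2.23%; 4.17% of all regions without the set apart), of which 24 rose and 6 fell, beside 2.81% and 1.36% of all regions. Chromosome 33 held 18 of the rises and 2 of the falls. In 6hPR+FGF2 RPE 34 were called (2.52%; 4.62% of all), of which 26 rose and 8 fell, beside 2.55% and 2.07%. With libraries scaled to equal totals the split moved from 24 and 6 to 15 and 7 in developing RPE and from 26 and 8 to 17 and 15 in treated RPE, so the lean toward rises in treated RPE depended on the scaling. Both stage comparisons called 9 regions in common, of which 7 rose in both, 1 fell in both and 1 moved in opposite directions. The 7 rises and 1 fall, with the opposite region left out, made up 26.7% and 23.5% of the calls of each comparison, beside 28.5% and 25.8% over all regions. Both stage counts depended strongly on which library was left out of the fit. The counts that follow are of dot regions and stand without the share called over all regions. They do not show whether dot regions moved more than others. In developing RPE the count was 0 without E4 RPE replicate 1, E5 RPE replicate 1 or E5 RPE replicate 2, so that every call of this comparison was lost there, and 8.39%, 8.91% and 7.05% of the dot regions were then left at an unadjusted p under 0.05, beside 13.4%, 13.6% and 13.5% of all regions. In treated RPE it was 1 and 13 without replicates 1 and 2 of E4 6hPR+FGF2, 68 and 1 without replicates 1 and 2 of E5 6hPR+FGF2, and 12 and 11 without those of E5 RPE. The calls named below for treated RPE from the largest changes were among those lost without E4 6hPR+FGF2 replicate 1 or E5 6hPR+FGF2 replicate 2.

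The largest rise with stage in developing RPE was at chr33:5717130-5717700. It had 53.7 and 86.4 normalized counts in E4 RPE and 277 and 305 in E5 RPE, but 24.8 and 21.4 in treated E4 RPE and 34.9 and 19.8 in treated E5 RPE. The stage change was 2.07 (SE 0.38, adjusted p = 0.022) in developing RPE and 0.18 (SE 0.38, adjusted p = 0.81) in treated RPE. Treatment changed the region by -1.52 (SE 0.38, adjusted p = 0.0197) at E4 and by -3.42 (SE 0.38, adjusted p = 0.000204) at E5. The difference between the stage changes, -1.89 (SE 0.54, adjusted p = 0.431), did not pass the test.

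A pair of rises lay close to each other on chromosome 33, near CERS5, which encodes a ceramide synthase. The region chr33:5771480-5771790, in an intron of CERS5 in the annotation of the study and nearest to the promoter of COX14, a factor for assembly of cytochrome c oxidase, had 39.6 and 34.2 in E4 RPE and 101 and 113 in E5 RPE. It had 35.2 and 36.6 in treated E4 RPE and 123 and 161 in treated E5 RPE. All E5 libraries lay above all E4 libraries, with stage changes of 1.51 (SE 0.30, adjusted p = 0.0278) in developing and 1.94 (SE 0.30, adjusted p = 0.016) in treated RPE, while treatment changes of -0.04 and 0.39 did not pass the test. The region chr33:5750100-5750860 lay in an intron of another gene in that annotation and nearest to the promoter of CERS5. It had 77.8 and 90.5 in E4 RPE and 187 and 183 in E5 RPE. After treatment it had 64.9 and 80.1 at E4 and 229.6 and 191 at E5. It rose by 1.13 (SE 0.25, adjusted p = 0.0361) and 1.53 (SE 0.25, adjusted p = 0.0174). An intronic region of ANKRD52, a regulatory subunit of protein phosphatase 6, chr33:6968530-6969700, had 187 and 231 in E4 RPE and 480 and 449 in E5 RPE, and 218, 233, 461 and 530 in the treated libraries. It rose by 1.16 (SE 0.19, adjusted p = 0.0155) and 1.13 (SE 0.19, adjusted p = 0.0184). Only 7 of the 1415 regions carried an annotation in the tables used here, 3 of them with a gene name, and the other regions are given by position.

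The remaining regions called in both stage comparisons included the widest change of this kind. The region chr33:2885750-2898840, 13090 bp wide, had 12220 and 12895 in E4 RPE, 7651 and 5854 in E5 RPE, 3855 and 3619 in treated E4 RPE and 2410 and 2241 in treated E5 RPE. It fell in all 4 comparisons. The change with stage was -0.91 (SE 0.14, adjusted p = 0.0132) in developing and -0.68 (SE 0.14, adjusted p = 0.0281) in treated RPE, and the change with treatment was -1.75 (adjusted p = 9.24e-05) at E4 and -1.53 (adjusted p = 9.48e-05) at E5. On chromosome 30, chr30:506940-507810 rose in all 4, from 290 and 264 in E4 RPE through 482 and 529 in E5 RPE and, after treatment, 439 and 577 at E4 to 1135 and 1244 at E5. Its changes ran from 0.86 to 1.24.

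Of the 6 falls with stage in developing RPE, 3 were on chromosome 31, 2 on 33 and 1 on 16, and the 3 largest were those on chromosome 31. The region chr31:191950-197710 had 4315 and 3590 in E4 RPE, 2208 and 1767 in E5 RPE and 463 to 834 in the treated libraries, and fell by 0.99 (SE 0.21, adjusted p = 0.0315). The regions chr31:621180-621650 and chr31:1694650-1695700 changed by -1.19 (SE 0.28, adjusted p = 0.045) and -1.16 (SE 0.26, adjusted p = 0.0402), each from over 230 to under 130 normalized counts. Their treated libraries lay between 118 and 220. Of the 8 falls in treated RPE, 5 were on chromosome 33, 2 on 16 and 1 on 30. After that on chromosome 30, described below, the next largest by the rule were on chromosome 16. The region chr16:2495400-2499820 had 2345 and 2283 in treated E4 RPE and 1047 and 1170 in treated E5 RPE, beside 3367 to 3787 in the developing libraries, and fell by 1.06 (SE 0.13, adjusted p = 0.011). The region chr16:2548530-2549450 went from 1358 and 1062 to 584 and 805 and fell by 0.81 (SE 0.19, adjusted p = 0.0452). The largest rise, at chr16:1342270-1342740, went from 42.1 and 15.3 in E4 6hPR+FGF2 to 272 and 74.5 in E5 6hPR+FGF2 (2.44, SE 0.57, adjusted p = 0.0423), beside 375 to 731 in the developing libraries. In this region the treated E5 replicates were far apart, and its call was lost on leaving out any of the 8 libraries, with an adjusted p of up to 0.175. The call at chr16:2548530-2549450 was lost on leaving out any library but E4 6hPR+FGF2 replicate 2, with an adjusted p of up to 0.289.

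The region chr30:1535570-1536690 moved in opposite directions with stage. It had 299.8 and 280.5 in E4 RPE and 829 and 1082 in E5 RPE, but 344 and 192 in treated E4 RPE and 90.0 and 50.1 in treated E5 RPE. It rose by 1.70 (SE 0.33, adjusted p = 0.0246) in developing RPE and fell by 1.92 (SE 0.33, adjusted p = 0.019) in treated RPE. Treatment changed it by -0.17 (SE 0.33, adjusted p = 0.749) at E4 and by -3.80 (SE 0.33, adjusted p = 7.97e-05) at E5. The difference between the stage changes, -3.62 (SE 0.46), had an adjusted p of 0.128 over all regions and was not called. No dot region was called for this interaction of stage and treatment by limma (0.00223% of all regions were). At an unadjusted p under 0.05 limma gave 159 dot regions (11.8%, beside 9.23% of all regions without the set apart). After adjustment edgeR called 0 dot regions, and DESeq2 called 6 of the 307 it called in all.

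Outside chromosome 16 the strongest region of each dot chromosome changed by at most 0.75 on the log2 scale with treatment. On chromosome 30, chr30:1696750-1699180 had 15302 to 17386 in developing and 10551 to 15767 in treated libraries, and fell by 0.52 (SE 0.12, adjusted p = 0.0161) at E4 but was not called at E5. On chromosome 32, chr32:296410-297570 had 12493 and 10079 in E4 RPE against 7089 and 6321 in E4 6hPR+FGF2, a change of -0.75 (SE 0.13, adjusted p = 0.0045). It was at 10710 and 11310 against 9999 and 11425 at E5, where the groups overlapped. On chromosome 33, chr33:7086710-7088380 had 11056 to 13306 in developing RPE and 15387 and 17506 in E5 6hPR+FGF2, a rise of 0.48 (SE 0.12, adjusted p = 0.0118) at E5. On chromosome 31, chr31:5647000-5648570 had 4442 to 7418 over the 8 libraries and was not called in any comparison. The call on chromosome 30 was lost without either E4 RPE library or E4 6hPR+FGF2 replicate 2 and with quantile normalization (a change of -0.11, adjusted p = 0.385). That on chromosome 32 was lost without E4 6hPR+FGF2 replicate 2 (0.0561), and that on chromosome 33 without either E5 RPE library and in a fit of the 4 E5 libraries alone (up to 0.0877).

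The widest regions were 31550 bp on chromosome 30 (chr30:1446170-1477720), 30360 bp on 31 (chr31:4633940-4664300), 17130 bp on 16 (chr16:2592260-2609390), 13950 bp on 33 (chr33:5957840-5971790) and 7220 bp on 32, from position 80 to 7300. Spread over such widths their counts were low, at 833 to 1427 on chromosome 30 and 161 to 364 on chromosome 32. Those of chromosomes 33 and 32 rose after treatment at both stages. The region of chromosome 33 went from 1117 to 1507 in developing to 1942 to 2666 in treated libraries, by 0.69 (SE 0.18, adjusted p = 0.0237) at E4 and 0.88 (SE 0.18, adjusted p = 0.00434) at E5. That of chromosome 32 rose by 0.86 (SE 0.22, adjusted p = 0.0225) and 0.62 (SE 0.22, adjusted p = 0.0482). At E4 both calls were lost on leaving out any of the 4 E4 libraries (adjusted p up to 0.143 and 0.0947), and at E5 that of chromosome 32 was lost without any library but E5 6hPR+FGF2 replicate 2 (up to 0.271), with quantile normalization, in a fit of the 4 E5 libraries alone and with a crossed replicate block. Those of chromosomes 16, 30 and 31 were not called for treatment at either stage.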

How the data were processed

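ATAC-seq was performed by the authors on RPE nuclei in 8 libraries, 2 in each of 4 groups taken from the labels. Per the methods of the study, Cutadapt and Trim Galore trimmed the reads, Bowtie2 aligned them to GRCg6a with several alignments per read allowed, and Picard removed duplicates. HMMRATAC called open regions in each library, and BEDTools merged them. Reads were counted per region with featureCounts without strand and divided by DESeq2 size factors. Not given in the sources used here are tool versions, an adjustment for the transposase and the counting of reads with several alignments, so reads of repeats can be counted at another copy. The values deposited by the authors are a signal, normalized read counts per region. Each was a whole multiple of 1 read (100.0% within a tolerance of 1e-06), so reads were recovered. These totals are reads within regions and not the sequencing depth.

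Changes were tested with limma 3.58.1 (R 4.3.3) on log2(normalized count + 1), which understates changes of weak regions, in a model with a mean per group over the 8 libraries, a trended prior and two-sided p-values adjusted by Benjamini-Hochberg over all 89824 regions at 0.05. The model was also run on simulated counts, for stage in developing RPE only, with changes placed in regions with a mean of at least 50. Spread in that run followed the mean level, so it does not bear on regions with noisier replicates. For each comparison the 3 largest rises and the 3 largest falls were named among called dot regions with a mean of at least 100 in the higher group and replicates that did not overlap, together with the strongest and the widest region per chromosome and the strongest of the set apart. At E4, 293 of the 312 rises and 91 of the 116 falls met this rule. Alternatives were a pseudocount of 0.5 or 10, a minimum of 50 for the mean, other scalings, quantile normalization, narrow regions, fits of 4 libraries, a replicate block, leaving out each library, other set apart thresholds, and edgeR 4.0.16 and DESeq2 1.42.0 on the recovered reads. The members, lists and thresholds were chosen with earlier results of these data known. Coordinates are as deposited, with the first base, 0 or 1, unstated. A genome of this build was not used here, so sequences, GC content, motifs, promoters of preset genes and RPE marker genes were not examined. Names of 3 genes come from the annotation of peak summits in the tables of the study, of which no values were used.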

Additional observations from a re-analysis of the deposited data

Results flagged for a closer look

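The region chr30:1535570-1536690 stood out because its E5 against E4 change went in opposite directions in the 2 conditions in every library: both E5 RPE libraries lay above both E4 RPE libraries, and both E5 6hPR+FGF2 libraries lay below both E4 6hPR+FGF2 libraries. The difference of the stage changes was -3.62 on the log2 scale (SE 0.46), with a limma adjusted p of 0.128 over all regions.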

How the results depend on the processing

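Outside the set apart, 34 tests of named regions were called, and of their 681 recomputations 589 kept the call, 92 lost it (78 on leaving out a library) and 0 changed sign. Of 13 such tests that were not called, 7 changed sign under some alternative, and 18 of their recomputations were called. For treatment, the counts of 428 at E4 and 603 at E5 were 173 to 461 and 389 to 606 on leaving out 1 library, and 435 and 614 with edgeR and 460 and 597 with DESeq2. The stage count of 30 in developing RPE was 0 to 35 on leaving out 1 library and 60 with DESeq2. That of 34 in treated RPE was 1 to 68 on leaving out 1 library, 93 with DESeq2 and 0 in a limma fit of the 4 treated libraries alone, where 262 dot regions (19.5%, as over all regions) had an unadjusted p under 0.05 and fewer libraries were fitted. edgeR called 28 and 34. Counts of adjusted calls under these alternatives, here and above, are of dot regions and stand without the share over all regions. They show how far the dot counts moved, and not whether dot regions moved more than others. The share of rises among stage calls, 80.0% in developing and 76.5% in treated RPE, was 68.2% and 53.1% with equal totals, and 63.3% in treated RPE with quantile normalization. Scaling to equal totals shifted the median of all regions by -0.12 for stage in treated RPE and by 0.11 for treatment at E4, and size factors from chromosomes 1-5 shifted it by 0.11 and 0.12 for treatment at E4 and E5. For the interaction DESeq2 called 6 regions and limma and edgeR 0.

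With the replicate number as a block, the counts were 49 and 63 for stage in developing and treated RPE and 466 and 627 for treatment at E4 and E5. The labels do not state that equal numbers mark a shared batch, and the deviations of same-numbered libraries correlated at -0.05, 0.33, 0.33 and -0.21 in these comparisons, so the block was not used. A block with crossed numbers, chosen after seeing the data, gave 597 for treatment at E5. These block counts also stand without the share over all regions, so they do not show whether dot regions gained calls more than others.

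The difference of the dot median to chromosomes 1-5, 0.28 in developing and 0.70 in treated RPE, was 0.43 and 0.86 with a minimum mean of 50, -0.031 and 0.088 against chromosomes 11-28, and 0.026 and 0.48 per 1000 bp. With the set apart included it was 0.24 in developing and 0.59 in treated RPE. The set apart numbered 59 at a threshold of 1%, 87 at 5%, and 37 with a developing mean of at least 100. The cause of these shifts was not tested. Depth limits the set apart: without a read, the floor of 3 reads per group is 1.09 normalized counts in treated E4 and 2.49 in treated E5 RPE. With 2 libraries per group, a stage change of a weak region can go uncalled.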
